A study of Mus musculus with 12 samples.

Results

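Genes of cholesterol synthesis and of its control by the transcription factor SREBP2 were examined in mouse hematopoietic stem cells (HSCs) after treatment with estradiol (E2), the main estrogen. The genes are Insig1, Srebf2, Hmgcs1, Idi1, Fdft1, Sqle, Lss and Cyp51, chosen by gene symbol as 8 of the 19935 genes that had a probe set with a single symbol. They have 10 of the 35474 probe sets on the arrays, since Idi1 and Fdft1 have a pair each. A further 1 probe set, which lists a member beside other genes, was left out. None of the 8 is itself an uptake gene, so uptake is described through a separate list.

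The 12 arrays hold HSCs from male mice given E2, male mice given oil, female mice given E2 and female mice given oil, with 3 biological replicates from 3 mice in each group. All mice were young adults of 2 to 3 months, fed freely, and received 100 µL of corn oil under the skin, which carried 2 µg of E2 in the treated mice and no E2 in the controls. The number of doses, the time to collection, the strain and the females' cycle stage are not given in the labels. The cells carried CD150, c-kit and Sca-1 and lacked CD48 and lineage markers, and 5000 to 7000 were sorted per sample, so the RNA was amplified before hybridisation.

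Animal cells hold the membrane-bound precursor SREBP2, the product of Srebf2, in the endoplasmic reticulum through Scap and the Insig proteins while sterols are plentiful. When sterols run low, Scap carries the precursor to the Golgi, where it is cut, and the released fragment enters the nucleus and switches on the genes of cholesterol synthesis and uptake, with Insig1 and Srebf2 itself among its targets. Transcript levels of these targets are therefore commonly read together, and dividing cells need sterol and isoprenoids for new membrane and for protein prenylation.

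The promoters of the 3 members with the smallest p under E2 are shown because SREBPs bind a sterol regulatory element (SRE) there, usually near a CCAAT box bound by NF-Y. Each is the 250 bases before the RefSeq start site in GRCm38.p6, read 5′ to 3′ along the gene. Insig1 lies at chr5:28071162-28071411 on the plus strand, Hmgcs1 at chr13:119690101-119690350 on the plus strand and Srebf2 at chr15:82147019-82147268 on the plus strand. Capitals mark matches, on either strand, to the SRE letters TCACNCCAC with up to 1 mismatch and to CCAAT.
Insig1: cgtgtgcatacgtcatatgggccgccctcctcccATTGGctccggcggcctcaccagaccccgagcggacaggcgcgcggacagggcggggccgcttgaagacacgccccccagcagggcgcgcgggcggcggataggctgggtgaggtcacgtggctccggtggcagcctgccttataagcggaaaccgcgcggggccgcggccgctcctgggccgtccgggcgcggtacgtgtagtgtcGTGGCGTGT
Hmgcs1: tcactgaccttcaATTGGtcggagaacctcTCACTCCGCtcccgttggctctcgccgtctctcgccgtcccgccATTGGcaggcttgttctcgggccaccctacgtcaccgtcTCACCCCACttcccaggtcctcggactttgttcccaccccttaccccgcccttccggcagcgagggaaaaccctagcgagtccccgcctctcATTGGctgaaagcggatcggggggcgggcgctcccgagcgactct
Srebf2: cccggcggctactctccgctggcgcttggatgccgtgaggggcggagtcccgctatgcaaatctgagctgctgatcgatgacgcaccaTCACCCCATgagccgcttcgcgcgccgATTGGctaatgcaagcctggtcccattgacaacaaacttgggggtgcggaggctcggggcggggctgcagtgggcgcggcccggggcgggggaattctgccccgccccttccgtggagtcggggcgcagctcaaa

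The exact SRE letters were found in 1.05% of the 32851 mouse promoters in the table and in 1 of the 6 member promoters it holds, that of Hmgcs1, from 137 to 129 bases before the start. With 1 mismatch allowed, which includes exact matches, 20.7% of all promoters had a match, as did those of Insig1, Srebf2, Hmgcs1 and Cyp51. CCAAT was present in 33.8% of all promoters and the GC box letters GGGCGG in 32.7%, and each was present in all 6 member promoters. The E-box letters CACGTG were in 6.02% of promoters and, among the members, in that of Insig1. The palindromic estrogen response element, searched as the letters GGTCA and TGACC with any 3 bases between them, was in 0.0639% of promoters and in 0 of the 6. Both strands were searched, matches to different motifs did not overlap in the member promoters, and a match is a description of letters, not a shown binding site.

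The arrays were alike in scale, with median intensities of 143.3 to 159.4, and the sexes matched their labels, with Xist at 3417 to 3897 in females and 61.9 to 73 in males. Of 8 HSC marker genes with a probe set, all 8 lay above the level used as a filter. Of 10 measured genes listed for cells outside the sort, 4 also lay above it (Flt3, Cd3e, Cd4 and Itgam). The others, Cd48 included, lay below it. Values are linear intensities as deposited. Tests used limma on log2(intensity + 1), kept the 9967 genes above the median gene mean (an intensity of 182), and called a change at a Benjamini-Hochberg adjusted p under 0.05. By this filter 7 of the 8 members were tested, and Lss was not.

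Insig1 was the member that fell under E2 when the sexes were averaged. This protein of the endoplasmic reticulum retains the Scap and SREBP complex and takes part in the degradation of the rate-limiting reductase of the pathway. Insig1 intensity was 362, 613 and 546 in E2 males, against 554, 711 and 762 in oil males. It was 398, 521 and 432 in E2 females, against 779, 725 and 704 in oil females. The female groups did not overlap, while 1 of the 3 E2 males stood above the lowest oil male. Averaged over the sexes the log2 fold change was -0.58 ± 0.12 (SE), a change of -32.9%, with a 95% interval of -0.84 to -0.31 and adjusted p = 0.012. The call held under all 21 alternative settings, with adjusted p from 0.00683 to 0.0361. In this comparison 8.9% of all tested genes were called, 5.78% lower and 3.12% higher, and 1 called member of 7 against that share says nothing about the members as a group. In arrays of sorted cells, fewer cells of a type and less RNA per cell cannot be told apart.

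Within each sex the same gene gave different calls. In males the Insig1 log2 fold change was -0.44 (95% interval -0.81 to -0.06, adjusted p = 0.264). In females Insig1 fell by 0.72 on the log2 scale (95% interval -1.09 to -0.34, adjusted p = 0.0416). The female response minus the male response was -0.28 (95% interval -0.81 to 0.25, adjusted p = 0.954), so a difference between the sexes was not shown. The female call was narrow: the adjusted p ran from 0.0156 to 0.127 over 22 alternatives and passed in 10 of them. From low to high, the group means of Insig1 were 450 ± 63.3 in E2 females, 507 ± 130 in E2 males, 676 ± 108 in oil males and 736 ± 39 in oil females (SD, n = 3 each). The E2 groups overlapped each other, and so did the oil groups.

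Srebf2, which encodes the SREBP2 precursor, was lower in E2 females. Its intensity was 849, 832 and 857 in E2 females, against 1151, 1081 and 1003 in oil females. In males it was 982, 1145 and 1041 under E2, against 1075, 1075 and 1125 under oil. The female arrays separated fully, and the spread of the E2 females was small (846 ± 13, SD, n = 3), while the male arrays overlapped. The log2 fold change was -0.35 ± 0.08 in females (SE, 95% interval -0.53 to -0.17, adjusted p = 0.0382) and -0.05 in males (95% interval -0.23 to 0.13, adjusted p = 0.842). Averaged over the sexes it was -0.20 with adjusted p = 0.0524, just outside the threshold, and it passed in 3 of 21 alternatives. The difference between the sexes' responses was -0.30, with an unadjusted p = 0.0253 and an adjusted p = 0.907. The female call passed in 7 of 22 alternatives, with adjusted p from 0.0207 to 0.159, and was lost, at 0.159, when the female arrays were fitted alone.

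**Figure D1:**
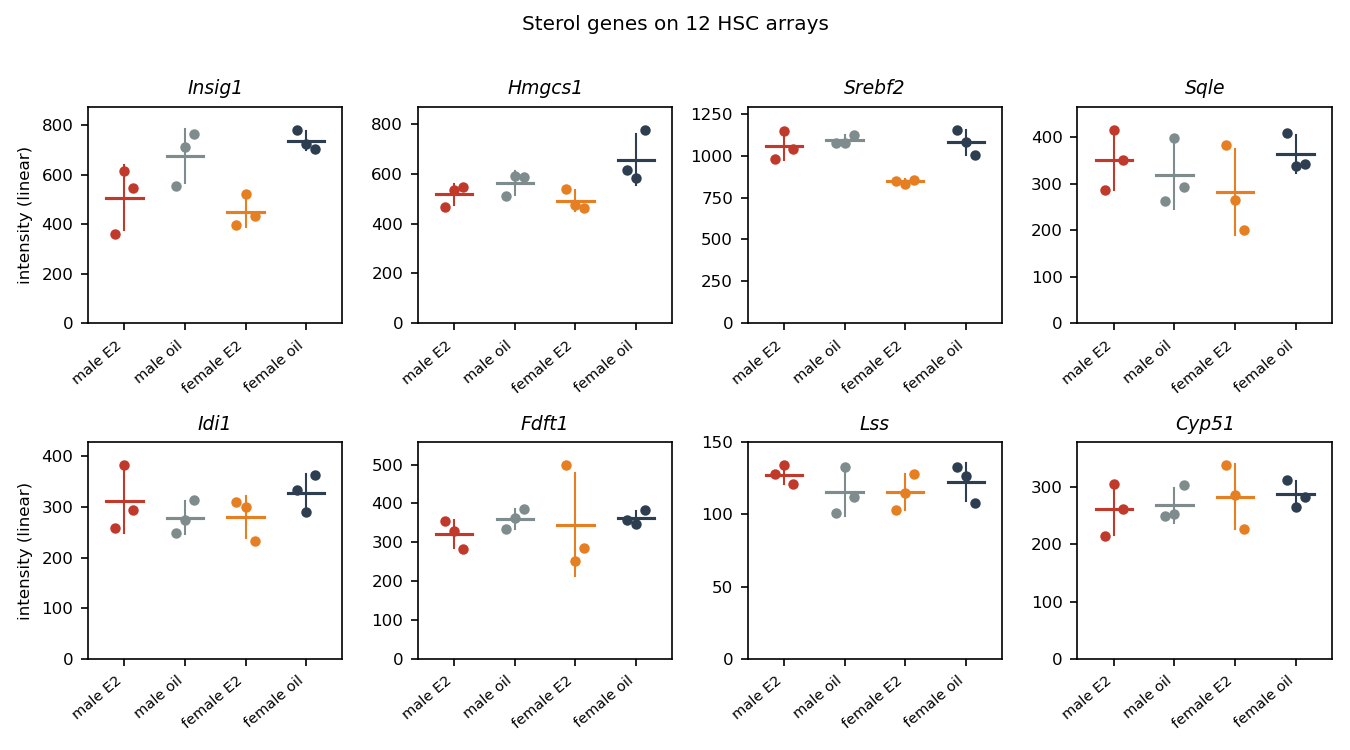
Linear intensity (y axis, from 0) of the 8 genes on each array, by group: male E2, male oil, female E2, female oil. Points are arrays in replicate order, horizontal bars are means and vertical lines are ± 1 SD (n = 3); in females the E2 and oil points of Insig1, Hmgcs1 and Srebf2 do not overlap, and the Lss values lie near 120.

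Hmgcs1 encodes the synthase that makes HMG-CoA, the substrate of the rate-limiting step. Its intensity was 539, 473 and 463 in E2 females, against 613, 582 and 774 in oil females, and these arrays did not overlap. In E2 males it was 467, 536 and 547, against 509, 592 and 586 in oil males, which did overlap. The averaged log2 fold change was -0.26 (95% interval -0.44 to -0.09, adjusted p = 0.0644), and in females it was -0.41 (95% interval -0.66 to -0.16, adjusted p = 0.0763), so neither passed. The male value was -0.12 (adjusted p = 0.684). Across the genes tested, all 3 E2 arrays lay below all 3 oil arrays for 13.1% of genes in females and 13% in males. Among the members this held for 3 of 7 in females, Insig1, Srebf2 and Hmgcs1, and for 0 of 7 in males.

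With all 12 arrays, the enzymes further along the pathway did not pass in any comparison. Idi1 encodes the isomerase that makes dimethylallyl diphosphate for chain building. Its brighter probe set gave 259, 382 and 294 in E2 males, against 248, 274 and 313 in oil males, and 309, 299 and 232 in E2 females, against 333, 289 and 363 in oil females. Both sexes overlapped. The log2 fold change was 0.15 in males (95% interval -0.18 to 0.48) and -0.24 in females (95% interval -0.57 to 0.09), with adjusted p = 0.703 and 0.442. The dimmer Idi1 probe set ranged from 133.9 to 202.8 over the 12 arrays, and its groups overlapped too.

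Fdft1 encodes squalene synthase, the first committed enzyme of the sterol branch, and its values turned on a single array. Its brighter probe set gave 498, 252 and 286 in E2 females, against 358, 346 and 382 in oil females. Female E2 replicate 1 was the highest of all 12 arrays, whereas the other E2 females were below every oil female. In E2 males it gave 355, 328 and 282, against 335, 362 and 386 in oil males. With all arrays the averaged log2 fold change was -0.15 (adjusted p = 0.536) and the female value was -0.13 (adjusted p = 0.758). Without female E2 replicate 1 these were -0.30 (adjusted p = 0.0234) and -0.43 (adjusted p = 0.0426). The dimmer Fdft1 probe set gave 209, 139.7 and 163 in E2 females, against 239.3, 274.3 and 210.3 in oil females, so those arrays did not overlap, though by a small margin. With the mean of both probe sets the female value was -0.32 (adjusted p = 0.292).

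Sqle encodes squalene epoxidase, a later rate-controlling enzyme. Sqle gave 383, 265 and 201 in E2 females, against 410, 339 and 342 in oil females. In E2 males it gave 287, 415 and 350, against 262, 399 and 293 in oil males. The groups overlapped in both sexes and the E2 females spread widely (283 ± 92.1, SD, n = 3). The log2 fold change was -0.40 in females (95% interval -0.86 to 0.05, adjusted p = 0.341) and 0.15 in males (95% interval -0.31 to 0.61, adjusted p = 0.807).

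Cyp51 encodes the lanosterol demethylase that follows ring closure. It gave 338, 287 and 226 in E2 females, against 313, 266 and 283 in oil females, and 215, 306 and 262 in E2 males, against 249, 253 and 304 in oil males. Its averaged log2 fold change was -0.04 (95% interval -0.28 to 0.19, adjusted p = 0.852), and the interval covers changes of either sign. Lss encodes lanosterol synthase, which closes the sterol rings, and was dim. Lss ran from 121 to 134 in E2 males, against 101 to 133 in oil males, and from 103 to 128 in E2 females, against 108 to 133 in oil females. In the fit with no filter its averaged log2 fold change was 0.03 (95% interval -0.16 to 0.22, adjusted p = 0.913).

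**Figure D2:**
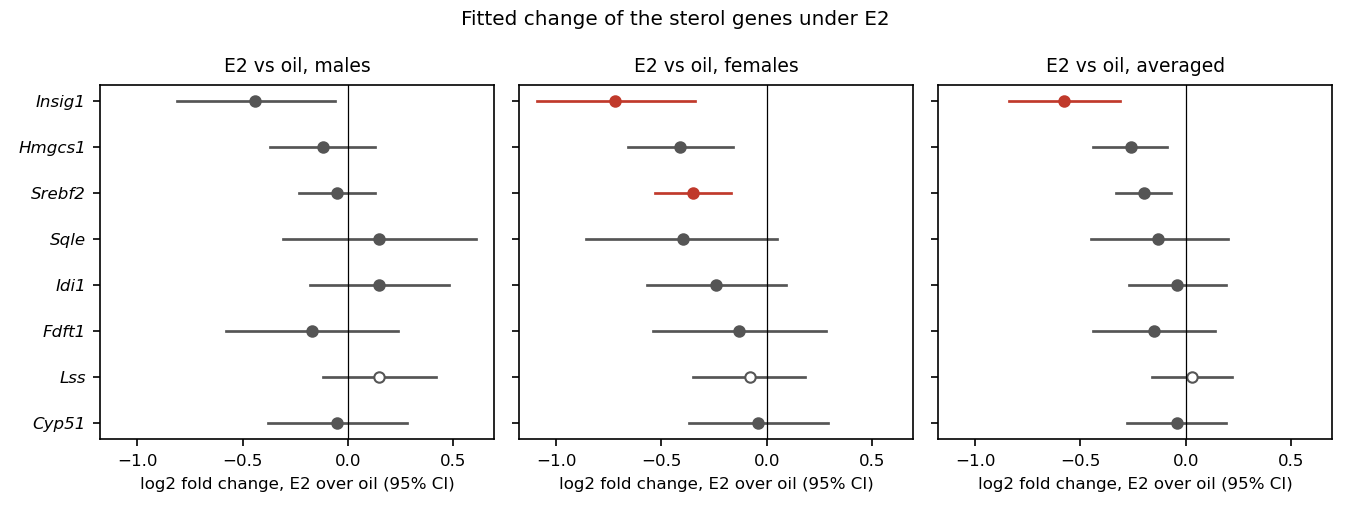
Fitted log2 fold change, E2 over oil (x axis), of each gene, with a panel for males, one for females and one for their average. Lines are 95% intervals, red marks an adjusted p under 0.05 (Insig1 averaged and in females, Srebf2 in females), and the open Lss circle comes from the fit with no filter.

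Read as a group, the 7 tested members lay below 0 in the average and in females, without most of them passing. The members were chosen with earlier results of these data known, so their shared direction is a description and not a test. Lss, which the filter left out, was at 0.03 in the average, 0.15 in males and -0.08 in females. The median log2 fold change of the 7 tested members was -0.15 averaged over the sexes, where all 7 were below 0, beside a median of -0.01 over all genes, of which 53.3% were below 0. In females the member median was -0.35, with 7 of 7 below 0 and 2 called. Over all genes the female median was -0.02, with 55.8% below 0, 3.56% called and 2.75% called lower. In males the member median was -0.05, with 5 of 7 below 0 and 0 called. Over all genes the male median was -0.00, with 50% below 0 and 1.43% called. limma's unadjusted p was under 0.05 for 3 members in the average and 3 in females (Insig1, Srebf2 and Hmgcs1 in each case) and for 1, Insig1, in males. Such p values were common among all genes. In the average, Hmgcs1, with an unadjusted p = 0.00684, ranked 1058 of the 9967 tested genes by limma's p. The share of all genes with an unadjusted p under 0.05 was not counted. Counts of this kind, here and for the lists below, are therefore not read as an excess. Without female E2 replicate 1, 3 members were called lower in the average (Insig1, Hmgcs1 and Fdft1) and 3 in females (Srebf2, Hmgcs1 and Fdft1), against 6.96% and 4.16% of all genes called lower in those fits, while Insig1 in females had adjusted p = 0.0778. Without female E2 replicate 3, whose Sqle and Idi1 were the lowest of the 12 arrays, the female median was -0.18 and no member was called in females. Nor was any called in females when male oil replicate 2 or 3, male E2 replicate 3 or any 1 of the oil females was left out, and 1 was called without male oil replicate 1 or female E2 replicate 2. Over the fits with a single array left out, all genes called in females numbered 122 to 549.

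Sex by itself did not give a call for any member. For the difference between the female and the male response, limma called 0 of 7 members (1, Srebf2, had an unadjusted p under 0.05), against 0.01% of all genes. The member values of that difference ran from -0.55 for Sqle to 0.04 for Fdft1. Female minus male, 0 of 7 members were called under E2 (1 with an unadjusted p under 0.05, again Srebf2, at -0.32 and adjusted p = 0.448), against 0.01% of all genes. Under oil 0 of 7 were called (0 with an unadjusted p under 0.05), against 0.0401% of all genes. The medians of these sex contrasts were -0.15 under E2 and 0.13 under oil.

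The members also varied from array to array inside the groups. After the group means were removed, the 5 tested enzymes (Hmgcs1, Idi1, Fdft1, Sqle and Cyp51) were positively related in all 10 pairs over the 12 arrays, with Pearson r from 0.30 to 0.89, the highest for Idi1 and Cyp51. Over all 21 pairs of members r ran from -0.37, for Insig1 and Fdft1, to 0.89, with a median of 0.50. These are descriptions with no test, and the values of an array share its RNA, amplification and scaling. On female E2 replicate 1, Insig1 and the enzymes lay at opposite ends of the group, although over the 12 arrays Insig1 was positively related to each tested enzyme except Fdft1. The array's Insig1 value was the lowest of the E2 females while its values of the 5 enzymes were the highest of them. The enzymes averaged 0.22 above their 12-array mean there on the log2 scale, and -0.17 and -0.36 on the other E2 female arrays. That array also had the highest mean of 19 DNA replication genes, at 0.57, against -0.08 and -0.11 on the other E2 females.

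**Figure D3:**
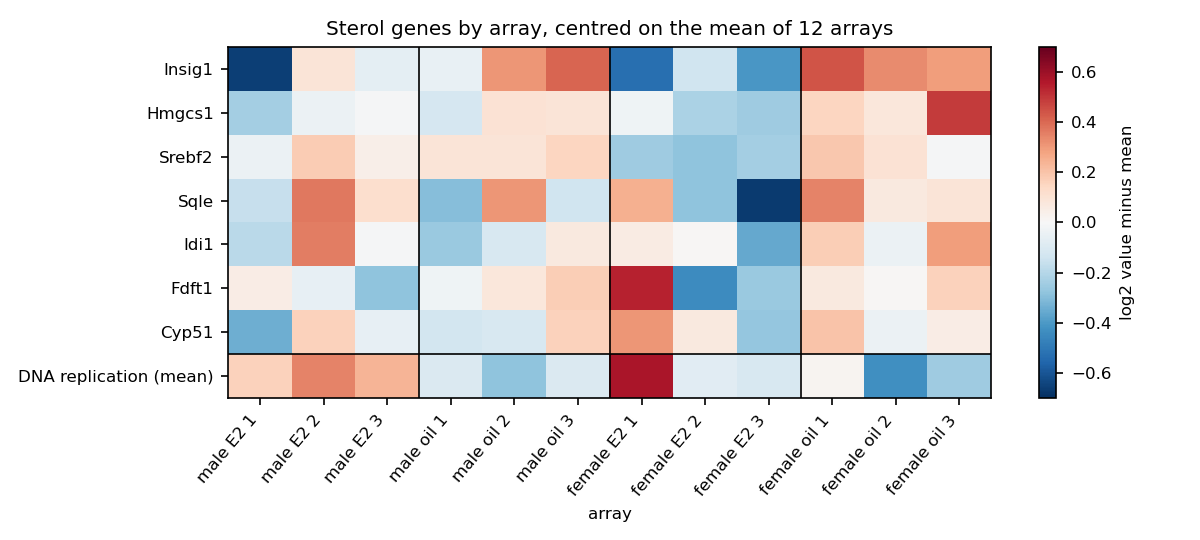
Log2 value of each tested gene minus its mean over 12 arrays (colour, from -0.7 blue to 0.7 red), with arrays in columns by group and, in the bottom row, the mean of 19 DNA replication genes. Insig1 is blue on all 3 E2 female arrays, while Fdft1 and the DNA replication row are red on female E2 replicate 1 (0.54 and 0.57).

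The genes whose pattern was most like the mean of the members over the 12 arrays, outside the lists used here, were Mta2 (Pearson r = 0.94), Man2a1 (0.93), Cxcr4 (0.90), Ifngr2 (0.89) and Ak3 (0.87). Their averaged log2 fold changes under E2 ran from -0.07 to -0.38 and 0 of the 5 was called, the smallest adjusted p being 0.0563 for Ifngr2. With the group means removed they were Spata5 (0.96), Cyb5b, Clns1a and Thoc5 (0.95 each) and Mrto4 (0.94). They were picked as the highest of all genes, so these values carry no test.

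With all 12 arrays, the synthesis list, members included, gave no call in the average or in either sex. Of 20 listed synthesis enzymes, 13 were tested, 5 of them members. In the average limma called 0 (2 had an unadjusted p under 0.05, Hmgcs1 and Ebp), against 8.9% of all genes. Called genes were 3.56% of all genes in females and 1.43% in males. With so few listed genes, 0 calls does not show that the list was unchanged. The averaged median of the 13 was -0.04, and 0.01 over the 8 that are not members, beside -0.01 for all genes. In females 10 of the 13 were below 0 (0 called, 3 with an unadjusted p under 0.05), beside 55.8% of all genes. The female median was -0.16, and -0.10 over the 8 that are not members. In males 8 of the 13 were above 0 (0 called, 2 with an unadjusted p under 0.05), while 50% of all genes were below 0. The male median was 0.09, and 0.12 over the same 8. Nsdhl, a sterol dehydrogenase named after its values were seen, gave 411, 345 and 330 in E2 females, against 409, 413 and 492 in oil females, and 445, 469 and 514 in E2 males, against 390, 390 and 375 in oil males. Its log2 fold change was -0.27 in females (adjusted p = 0.168) and 0.30 in males (adjusted p = 0.192), and the difference of -0.58 had an unadjusted p = 0.0016 and an adjusted p = 0.654. Ebp, the sterol isomerase, gave 508, 423 and 348 in E2 females, against 372, 316 and 339 in oil females, and 362, 398 and 380 in E2 males, against 325, 307 and 399 in oil males. Its averaged log2 fold change was 0.23 (adjusted p = 0.151), on the other side of 0 from Hmgcs1. Pmvk, phosphomevalonate kinase, was at 0.12 (adjusted p = 0.264). Without female E2 replicate 1 the list had 2 genes called lower, the members Hmgcs1 and Fdft1, and a median of -0.08. In females it had the same 2 genes called and a median of -0.29. Of all genes, 6.96% were called lower in the average and 4.16% in females in those fits.

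Genes of cholesterol uptake and transport gave no call either. Of 16 listed genes 11 were tested, with a median of -0.01, beside -0.01 for all genes. In the average limma called 0 (3 had an unadjusted p under 0.05), against 8.9% of all genes. With so few genes, 0 calls does not show that the list was unchanged. The 3 with an unadjusted p under 0.05 pointed in different directions. Npc2, which hands cholesterol out of lysosomes, had an averaged log2 fold change of -0.15 (adjusted p = 0.12), Stard4, a cytosolic sterol carrier, was at -0.16 (adjusted p = 0.179), and Lipa, the lysosomal ester hydrolase, was at 0.28 (adjusted p = 0.139). Lipa gave 382, 311 and 368 in E2 males, against 301, 262 and 270 in oil males, which did not overlap, and 256, 335 and 447 in E2 females, against 292, 295 and 290 in oil females, which did. Lipa was called higher in the average once female E2 replicate 1 was left out, against 3.2% of all genes called higher in that fit.

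Among the regulators of SREBP processing, Insig1 was the 1 called in the average, and Insig1 and Srebf2 were the 2 called in females. Of all tested genes, 5.78% were called lower in the average and 2.75% in females, so these small counts are not read as an excess. Of 15 listed regulators 12 were tested, and 4 of them, Insig1 included, had an unadjusted p under 0.05 in the average. The list median was -0.01, beside -0.01 for all genes. Insig2, the paralogue of Insig1, gave 310, 377 and 341 in E2 females, against 285, 302 and 277 in oil females. Those arrays did not overlap and lay in the opposite direction to Insig1, but the log2 fold change of 0.24 did not pass (adjusted p = 0.212). In males Insig2 gave 307, 291 and 309 under E2, against 257, 296 and 327 under oil. Scap, the escort of the SREBPs, was at 0.07 (adjusted p = 0.637), Srebf1, which encodes the SREBP that mainly drives fatty acid synthesis, at -0.04 (adjusted p = 0.719), and Ufd1, a cofactor of protein extraction from the endoplasmic reticulum, at -0.14 (adjusted p = 0.156).

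The genes of cholesterol export and ester turnover had more calls for their number than the other lipid lists. Of 14 listed genes 5 were tested and 4 fell in the average, Apoe, Abcg1, Abca1 and Nceh1, against 5.78% of all genes called lower, with a median of -0.38. The remaining tested gene, Cyp7b1, lay on the other side of 0, at 0.18 (adjusted p = 0.354). It was at 0.38 in males (adjusted p = 0.293) and -0.02 in females (adjusted p = 0.971). Apoe encodes apolipoprotein E, a carrier that accepts exported cholesterol. Apoe intensity was 1400, 1258 and 1202 in E2 males, against 2409, 2408 and 2311 in oil males. It was 1244, 1429 and 1478 in E2 females, against 2413, 2620 and 2513 in oil females. Each sex separated fully, and the averaged log2 fold change was -0.88 (95% interval -1.01 to -0.74, a change of -45.5%, adjusted p = 5.21e-06).

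Abcg1 and Abca1 encode transporters that pass cholesterol to high-density lipoprotein and to lipid-poor apolipoprotein, and in many cells both are targets of the sterol-sensing liver X receptors. Abcg1 gave 409, 419 and 452 in E2 males, against 678, 599 and 584 in oil males, and 484, 535 and 423 in E2 females, against 574, 687 and 683 in oil females. Neither sex overlapped, and it fell in both: by 0.54 on the log2 scale in males (adjusted p = 0.0231) and by 0.43 in females (adjusted p = 0.0435). The female call of Abcg1 was lost without female E2 replicate 1. Abca1 gave 266, 228 and 303 in E2 males, against 352, 354 and 381 in oil males, and 346, 304 and 323 in E2 females, against 345, 409 and 449 in oil females. The females overlapped by 1 array, and the averaged log2 fold change was -0.38 (adjusted p = 0.0136).

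Nceh1, a hydrolase of cholesteryl ester, gave 834, 772 and 1065 in E2 females, against 1134, 1197 and 1183 in oil females, and 1100, 852 and 1050 in E2 males, against 1073, 1232 and 1156 in oil males. Its averaged log2 fold change of -0.31 passed with all arrays (adjusted p = 0.0441) but in 7 of 21 alternatives, and not without female E2 replicate 1. Apoe, Abcg1 and Abca1 were called in the average under all 21 alternatives. The female minus male differences of response were 0.02 for Apoe, 0.10 for Abcg1 and 0.16 for Abca1, with adjusted p of 0.989, 0.973 and 0.954.

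**Figure D4:**
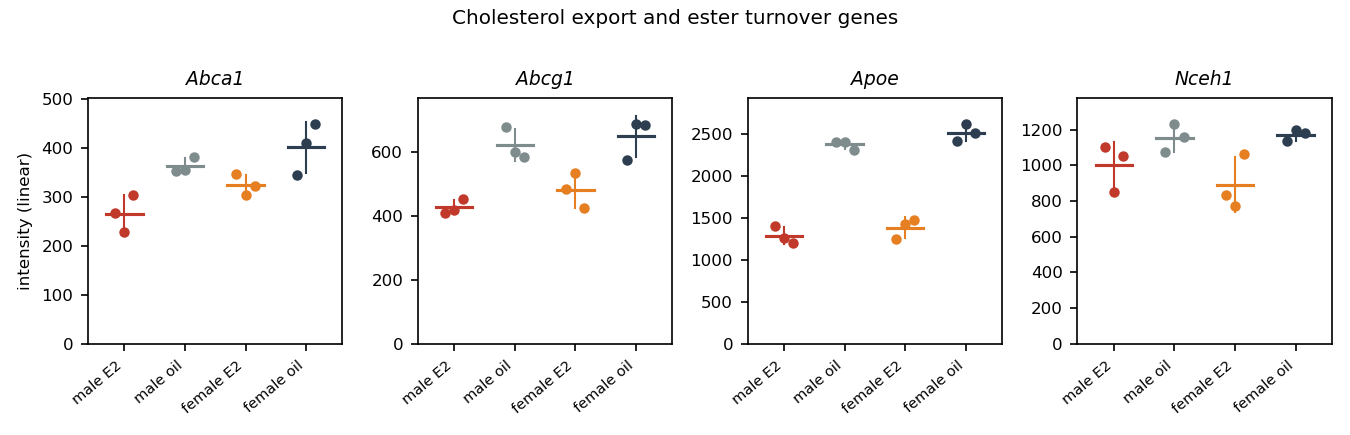
Linear intensity (y axis, from 0) of Abca1, Abcg1, Apoe and Nceh1 by group, with points for arrays, bars for means and lines for ± 1 SD (n = 3). Apoe on the E2 arrays lies between 1202 and 1478, below the 2311 to 2620 of the oil arrays.

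The isoprenoid branch leaves the pathway downstream of Idi1 and supplies prenyl groups, dolichol and ubiquinone. It had 8 tested genes of 11 listed, with a median of -0.02. In the average limma called 0 of them (0 with an unadjusted p under 0.05), against 8.9% of all genes. With so few genes, 0 calls does not show that the branch was unchanged. Its smallest p values belonged to Rce1, the protease that trims prenylated proteins (-0.14, adjusted p = 0.252), Dhdds, a subunit of the dolichol synthase (0.13, adjusted p = 0.256), and Pggt1b, a geranylgeranyl transferase subunit (0.12, adjusted p = 0.369).

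Fatty acid genes, mostly targets of SREBP1, went in both directions. Of 13 listed genes 11 were tested, 1 rose and 2 fell in the average, and the median was -0.05, against 3.12% of all genes called higher and 5.78% called lower. Fads2, the delta-6 desaturase of polyunsaturated fatty acids, rose by 1.00 on the log2 scale (adjusted p = 0.000249). Fads2 gave 2242, 1305 and 1663 in E2 males, against 759, 824 and 851 in oil males, and 1528, 1642 and 2076 in E2 females, against 937, 999 and 791 in oil females, with no overlap in either sex. Scd2, a stearoyl-CoA desaturase, fell by 0.48 (adjusted p = 0.0065) and gave 672, 522 and 533 in E2 females, against 975, 885 and 855 in oil females. In males Scd2 gave 556, 642 and 644 under E2, against 634, 897 and 769 under oil. Acss2, which makes acetyl-CoA from acetate, fell by 0.28 (adjusted p = 0.0311), a call kept in 12 of 21 alternatives.

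**Figure D5:**
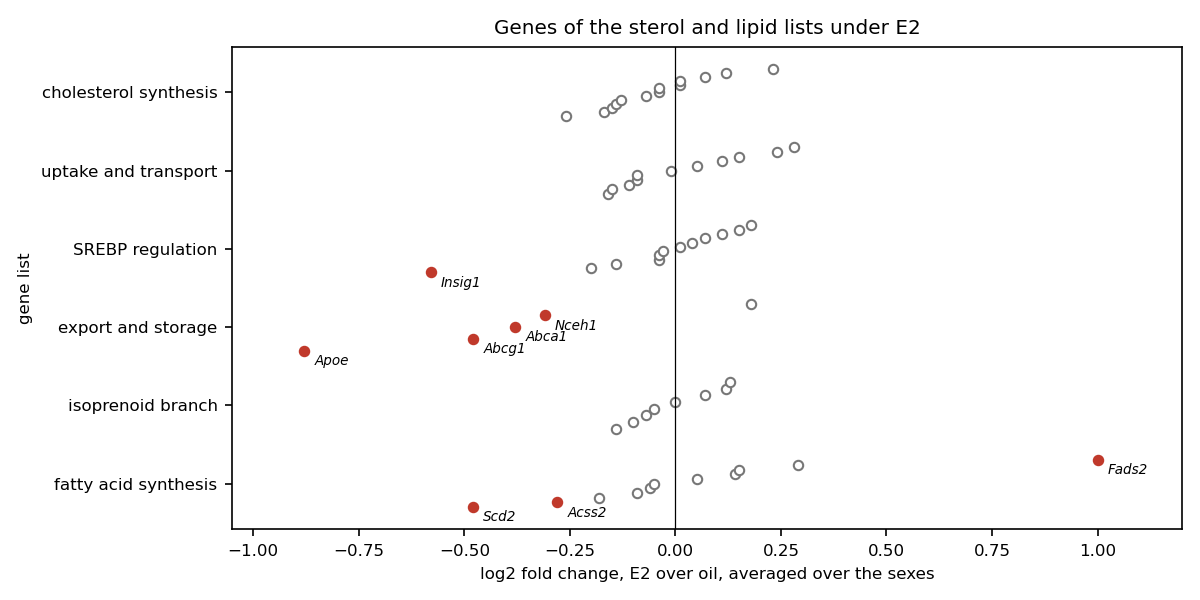
Averaged log2 fold change, E2 over oil (x axis), of every tested gene in 6 lipid lists (rows). Filled red points passed an adjusted p of 0.05 and are named. The synthesis, uptake and isoprenoid lists have none, beside 8.9% of all tested genes. Of the 5 export and storage genes, 4 lie at -0.31 or below.

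Other transcripts moved with E2 on the same arrays, and their part in the sterol values was not tested. Of 19 tested DNA replication genes, all 19 were above 0 and 4 rose in the average (Mcm5, Cdc6, Tk1 and Uhrf1), against 3.12% of all genes called higher, with a median of 0.33. Leaving out female E2 replicate 1 gave 6 called genes, against 3.2% of all genes called higher, and a median of 0.24. In females alone the median was 0.27 with 1 called, Tk1, and without that array it was 0.08 with 0 called. Summed intensities of 7 megakaryocyte genes were 2828 to 3142 in E2 males, against 3579 to 3981 in oil males, and 2147 to 3025 in E2 females, against 3579 to 3907 in oil females. Of 6 tested, 4 fell in the average (Pf4, Plek, Gp5 and Itga2b, from -1.40 to -0.44), while Gp9 rose by 0.51 (adjusted p = 0.0187) and Vwf was at 0.28 (adjusted p = 0.108). Of all tested genes, 5.78% were called lower and 3.12% higher in that comparison. Sums of 9 lymphoid genes, of which 6 were below the filter, including Cd79a, Ms4a1 and Cd8a, were 1412 to 1493 in E2 males, against 1916 to 2053 in oil males, and 1401 to 1467 in E2 females, against 1803 to 2032 in oil females. Of the 3 tested, Nkg7 and Cd79b fell in the average, with log2 fold changes of -1.67 and -0.41, against the same 5.78% of all genes called lower. Nkg7 passed the filter through its oil arrays, with means of 573 in males and 495 in females, against 165 and 173 under E2.

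Sums of 10 granulocyte and monocyte genes, with Csf1r, Ctsg and Ccr2 below the filter, overlapped, at 8197 to 12797 in E2 males, against 8770 to 15561 in oil males, and 6639 to 13907 in E2 females, against 10452 to 19716 in oil females. Prtn3 (-0.29) was the 1 called of 7 tested, against 5.78% of all genes called lower in the average. Those of 10 genes listed for cells outside the sort, 6 of them below the filter, were 1735 to 2451 in E2 males, against 1266 to 1417 in oil males, and 1649 to 2905 in E2 females, against 1360 to 1460 in oil females. The list includes Flt3, which the sort described above does not name. Of 4 tested, 1 rose, 1 fell and the median was 0.04. Of all genes, 3.12% were called higher and 5.78% lower. The filter used the mean of all 12 arrays, and Itgam passed it through its E2 arrays and Flt3 through its oil arrays. These 2 calls are therefore not read as an excess over those shares. Itgam, which encodes the lineage marker CD11b, was at 645 to 1427 in E2 males, against 79.3 to 163 in oil males, and 589 to 1856 in E2 females, against 154 to 200 in oil females. Flt3, which encodes a receptor of more mature progenitors, fell, at 113 to 190 in E2 males, against 245 to 334 in oil males, and 130 to 140 in E2 females, against 278 to 321 in oil females. Sums of the 8 HSC genes were 9897 to 10198 in E2 males, against 11171 to 11242 in oil males, and 8813 to 10178 in E2 females, against 10053 to 10908 in oil females. Of the 8, 2 fell, Kit (-0.32) and Procr (-0.47), against 5.78% of all genes called lower. Erythroid and stromal sums overlapped between E2 and oil in both sexes. Tfrc, of 2 erythroid genes tested, rose by 0.36 (adjusted p = 0.0491) and Col1a2, of 3 stromal genes tested, rose by 0.90 (adjusted p = 0.00796). Of all genes, 3.12% were called higher. Col1a2 passed the filter through its E2 arrays, with means of 264 in males and 337 in females, against 149 and 158 under oil.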

How the data were processed

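HSCs of 12 samples were measured on single-colour arrays of biotin-labelled cDNA, amplified with the NuGEN Ovation Pico kit per the labels' protocols. The deposited table holds linear intensity values for 35474 probe sets (0.62 to 16148). How the authors corrected, normalised and summarised these intensities is not given in the sources used here, so their scale was kept. GEO's platform annotation gave 1 symbol to 21780 probe sets, several to 1605 and none to 12089. Some listed genes were not analysed here.

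Where a gene had several probe sets (998 genes), the brightest on average was used. limma 3.58.1 in R 4.3.3 fitted log2(intensity + 1) with 1 mean per group over all 12 arrays (8 residual and 5.38 prior degrees of freedom), on genes above the median gene mean, with Benjamini-Hochberg adjustment per contrast. Adding 1 shrinks fold changes slightly, most for dim genes. The fit was also run on simulated data with independent noise for each gene and array. Those data held no variation shared by genes on an array, so the run does not speak to such variation here. The number of arrays limits the precision.

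Members, gene lists and tests were chosen with earlier results of these data known. Named genes were the members, Srebf1, Insig2, Scap and Abca1. Each lipid or replication list added its called genes or, below 3 calls, those with its smallest p values. The 5 genes most like the member mean by either measure were also named. Cell marker genes, Nsdhl and Cyp7b1 were named after their values were seen. Alternatives changed the scaling, offset, filter, probe set rule, variance model and arrays used. Promoters are RefSeq's, from GRCm38.p6, and 6 of the 8 members had an entry (not Fdft1 and Sqle).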

Additional observations from a re-analysis of the deposited data

How the results depend on the processing

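The members called in the average numbered 2 under quantile normalization, 2 with an offset of 16 and 2 with a trended robust variance (Srebf2 joining Insig1 each time), and 1 to 3 with single arrays left out. In females they numbered 0 under quantile normalization, 0 with no filter, 0 with a filter at the 25th percentile, 0 with array weights, 1 with the compared groups alone, and 0 to 3 with single arrays left out. The female member median ran from -0.43 to -0.18 with arrays left out. All genes called in the average numbered 887 in the main fit and 568 with no filter. They ran from 568 to 1002 over the alternatives that kept all arrays, and from 481 to 1147 with arrays left out. The member counts were not set against the share of all genes called under the same setting. They are therefore not read as a result about the members. In males they numbered 80 with no filter, 409 with array weights, 390 with the compared groups alone and 53 to 328 with arrays left out, and in females 183, 226, 67 and 122 to 549. With no filter more dim genes enter the adjustment; the cause of the other shifts was not tested.

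Some values changed sign. The difference between the sexes' responses was -0.05 for Fdft1 and -0.07 for Cyp51 under median centring, -0.04 and -0.02 with array weights, and -0.17 for Fdft1 with probe sets averaged; with arrays left out it ran from -0.26 to 0.23 for Fdft1 and -0.12 to 0.17 for Cyp51. With arrays left out, averaged values ran from -0.12 to 0.02 for Idi1 and -0.11 to 0.03 for Cyp51, male values from -0.11 to 0.00 for Srebf2, -0.00 to 0.27 for Idi1 and -0.17 to 0.08 for Cyp51, and female values from -0.43 to 0.06 for Fdft1 and -0.17 to 0.12 for Cyp51.

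No pairing of the samples by replicate number was visible: residuals of same-numbered arrays of a sex correlated from -0.18 to 0.20 in 6 pairs. With so few arrays this check cannot exclude a pairing. With the replicate block, 1 member was called in the average, 0 in males and 1, Insig1, in females, among 736, 103 and 258 genes. The runs without female E2 replicate 1 for the gene lists were chosen after seeing the data.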
